A study of Homo sapiens with 9 samples.

Results

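The collagen genes were taken as the entries of the expression table whose symbol consists of COL, a type number, A and a chain number. There were 44 of them among 22295 entries, of which 19932 are gene symbols and 2363 are loci assembled from the reads without a symbol. None of the assembled loci (0) overlapped a collagen gene. The cells were U251, an established human glioblastoma line, infected with lentivirus that carries an sh-RNA and the M-cherry marker. The 3 groups had 3 RNA-seq libraries each: sh-Luci-3d (an sh-RNA against luciferase as the control, 3 days post infection, dpi), sh-Ptbp1-3d (the sh-RNA against PTBP1, 3 dpi) and sh-Ptbp1-7d (the same sh-RNA, 7 dpi). A single sh-RNA sequence was used for the knockdown, and the study cultured its cells in neuronal induction medium with forskolin and dorsomorphin from 2 dpi on. No control library of 7 dpi was analysed here, so knockdown and the additional days in this medium cannot be told apart in any comparison with sh-Ptbp1-7d. Nothing in the labels says that the libraries of a group came from separate cultures, so p-values measure the spread between these libraries, which may be technical.

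Collagens are extracellular proteins whose chains, each the product of one gene, wind around each other into a helix inside the endoplasmic reticulum before export. Fibrillar collagens such as types I, III, V and XI pack into fibers, type IV forms the sheet of basement membranes, type VI forms beaded filaments, and the fibril-associated collagens with interrupted helices (FACIT) decorate fibers. The normal brain holds little fibrillar collagen outside vessels and meninges, whereas glioblastoma cells are known to make types I, IV and VI. By type, the 44 genes comprised 11 fibrillar, 8 basement membrane and 25 other collagens, the last being 5 beaded filament, 10 FACIT, 4 transmembrane, 3 short-chain network and 3 anchoring fibril or unclassed genes.

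PTBP1 was at 111, 112 and 124 FPKM (sequenced fragments divided by transcript length in kilobases and by the size of the library) in the sh-Luci-3d libraries, 66.2, 64.4 and 61.0 in sh-Ptbp1-3d and 49.7, 50.7 and 51.0 in sh-Ptbp1-7d, without overlap between groups. The depth of the libraries is unknown, since the FPKM values carry no steps of whole reads, and no counting error can be given. Some libraries stood apart. The neuronal gene STMN2 was listed at 11.5 FPKM in replicate 3 of sh-Ptbp1-3d and at 0 in the other 8 libraries. Genes with the longest transcripts (from 5464 bases) were lower in replicate 3 of sh-Luci-3d, by a median of -0.24 on the log2 scale against the other 2 libraries of that group, and in replicate 3 of sh-Ptbp1-7d, by -0.22. Replicate 3 was the lowest in sh-Ptbp1-3d as well, by -0.08, but there the shortest transcripts (up to 2410 bases) were lower too, by -0.07. Many collagen transcripts are of this length. With a correction for length and GC content, added after seeing the data, the same 7 collagen genes were called from 3 to 7 dpi of the knockdown as without it.

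Most collagen expression came from few genes. Over all 9 libraries, 10 of the 44 genes had a mean of at least 10 FPKM, another 10 lay between 1 and 10, 10 lay between 0.1 and 1, and 14 were under 0.1. The 6 genes with the highest means, namely COL1A2, COL6A1, COL6A2, COL5A2, COL4A2 and COL4A5, made up 82.7 ± 1.27% of the summed collagen FPKM in sh-Luci-3d and 87.0 ± 0.899% in sh-Ptbp1-7d (SD, n = 3 each). Among the 14 under 0.1 FPKM were COL2A1, the collagen of cartilage, COL3A1, a fibrillar collagen of fibroblasts and vessel walls, and COL10A1, made by hypertrophic cartilage. The others were COL5A3, COL15A1, COL6A5, COL6A6, COL9A1, COL20A1, COL22A1, COL23A1, COL25A1, COL26A1 and COL28A1. COL9A1, COL6A5 and COL22A1 were listed at 0 in all 9 libraries. COL3A1 was between 0 and 0.0265 FPKM in 8 libraries and at 0.785 in replicate 3 of sh-Ptbp1-3d, the library that also held STMN2. The 14 genes were not tested, and the 30 with a mean of at least 0.1 FPKM were. COL6A3 passed this filter through the 3 dpi groups, in which it was high.

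Summed over the 44 genes, collagen expression was 591, 566 and 671 FPKM in the sh-Luci-3d libraries, 669, 649.8 and 629 in sh-Ptbp1-3d and 956, 931 and 786 in sh-Ptbp1-7d. The sh-Ptbp1-7d libraries were all above the other 6, whereas the 2 groups of 3 dpi overlapped. The mean at 7 dpi was 1.37 times that of sh-Ptbp1-3d, with an exact two-sided permutation p of 0.1, the smallest that 3 libraries against 3 allow. COL1A2 alone went from a mean of 220 FPKM in sh-Ptbp1-3d to 477 in sh-Ptbp1-7d. This exceeds the rise of the sum, from a mean of 649 to 891 FPKM, so the other genes together did not add to it. As a share of all FPKM, collagen genes made up 0.155 ± 0.0108% in sh-Luci-3d, 0.163 ± 0.00268% in sh-Ptbp1-3d and 0.240 ± 0.0287% in sh-Ptbp1-7d (SD, n = 3 each). By class, the sum of the fibrillar genes was 296 ± 7.70 FPKM in sh-Ptbp1-3d and 548 ± 58.4 in sh-Ptbp1-7d (SD, n = 3 each, exact permutation p = 0.1, no overlap). The rise of COL1A2 alone was larger than that of this class as well. Basement membrane collagens were at 100.1, 96.7 and 94.8 FPKM in sh-Ptbp1-3d and 124, 117 and 91.4 in sh-Ptbp1-7d, which overlapped. Beaded filament genes were lower in all 3 libraries of 7 dpi than in those of sh-Ptbp1-3d, at 178 ± 8.99 against 206 ± 10.3 FPKM (exact permutation p = 0.1), and overlapped with sh-Luci-3d. FACIT genes overlapped, at 46.3 ± 1.03 against 51.1 ± 8.63 FPKM (SD, n = 3 each). In bulk RNA, fewer cells expressing a gene and less RNA per cell cannot be told apart.

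From 3 to 7 dpi of the knockdown, 3 collagen genes rose and 4 fell. COL11A1, COL14A1 and COL1A2 rose, and COL6A3, COL9A3, COL18A1 and COL4A4 fell. A gene was called when limma, fitted on log2(FPKM + 0.1) over all 9 libraries, gave an FDR below 0.01 and more than a doubling or halving (a fold change over 2). Of all 15551 genes tested, 14.2% were called, 8.31% higher and 5.90% lower, and the collagen genes stood at 7 of 30. The low level of COL6A3 at 7 dpi was known when these genes were chosen, so its place in this count is a description. The median log2 fold change of the 30 was -0.05, beside 0.09 over all genes tested. The fold change on this scale understates changes of genes near 0.1 FPKM. By class, 2 of 8 fibrillar genes tested rose and 0 fell, 0 of 7 basement membrane genes rose and 2 fell, and 1 of the 15 other genes rose and 2 fell. The class medians were 0.38, 0.06 and -0.15 on the log2 scale. The sign of the first did not hold, being -0.02 without replicate 1 or without replicate 3 of sh-Ptbp1-7d and -0.44 where a mean of 1 FPKM was required. It was 0.10 without any one control library, 0.0023 without replicate 1 of sh-Ptbp1-3d and 0.11 without its replicate 2. In these fits without one library, COL3A1, at a mean of 0.0934 FPKM over all 9, passed the filter through its single high library. It joined the fibrillar genes, and the median was then the value of COL24A1. The basement membrane median became -0.06 without replicate 1 of sh-Ptbp1-7d and under quantile normalization, -0.03 under median-ratio scaling, and 0.20 without replicate 3 of sh-Ptbp1-7d. Without the fold threshold, 12 of the 30 passed the FDR, 6 in each direction, where 35.8% of all genes did. For 18 of the 30, all libraries of one group lay on one side of the other group, where 62.3% of all genes showed such a separation.

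**Figure D1:**
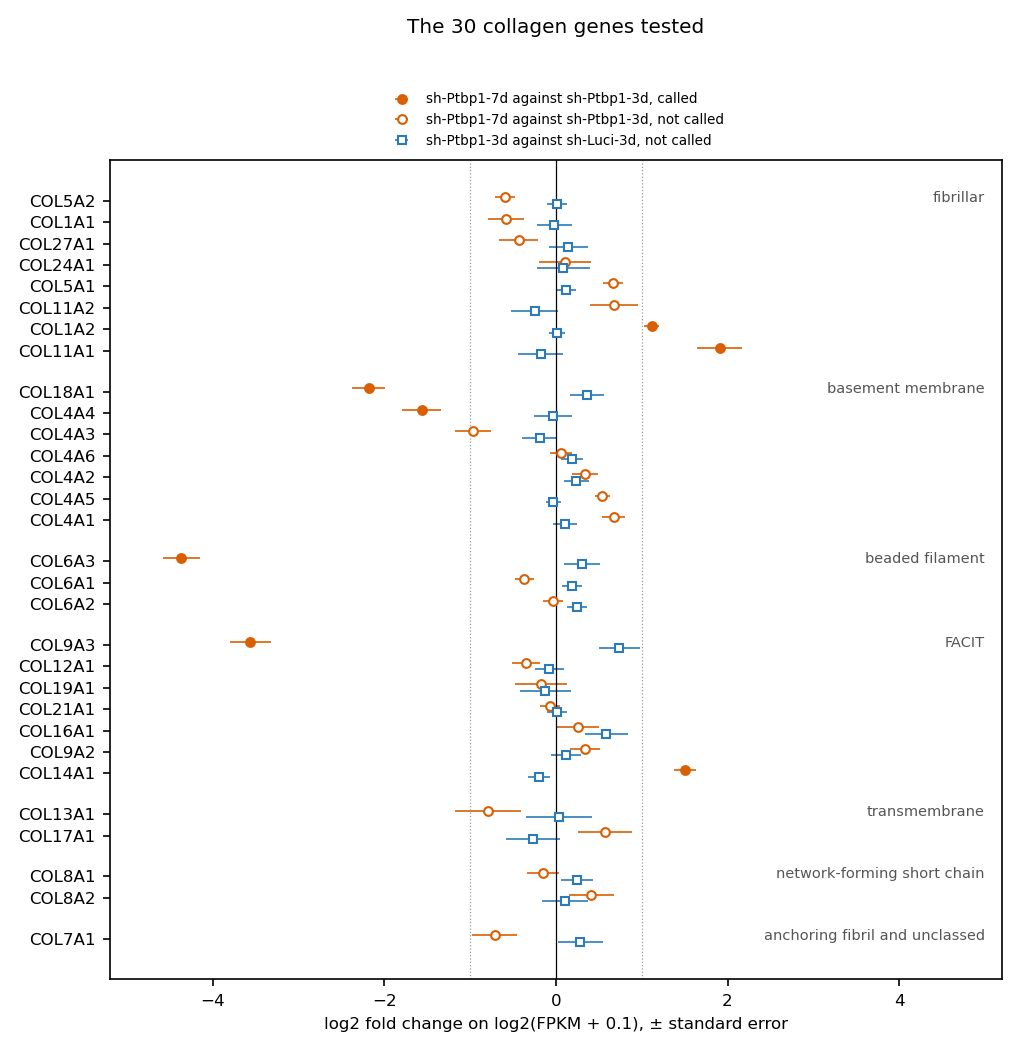
Log2 fold changes (horizontal axis, on log2(FPKM + 0.1), bars are ± standard error) of the 30 collagen genes tested, ordered within class. Filled circles are the 7 genes called from 3 to 7 dpi of the knockdown, open circles the other 23, and squares the comparison of sh-Ptbp1-3d with sh-Luci-3d, in which 0 were called; dotted lines mark a fold change of 2.

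COL1A2, which encodes the alpha 2 chain of type I collagen, the main collagen of skin, bone and scar, was the most abundant collagen transcript in every library. It lies on chromosome 7 from 94394561 to 94431232 (GRCh38, plus strand). It was at 214, 203 and 236 FPKM in sh-Luci-3d, 222, 222 and 214 in sh-Ptbp1-3d and 507, 500.4 and 423 in sh-Ptbp1-7d. The 3 sh-Ptbp1-7d values were all above the rest, and the 2 groups of 3 dpi overlapped. From sh-Ptbp1-3d to sh-Ptbp1-7d it rose with a log2 fold change 1.11, standard error 0.0914, limma adjusted p = 3.60e-06. Its share of all collagen FPKM was 35.8 ± 0.579% in sh-Luci-3d, 33.8 ± 0.499% in sh-Ptbp1-3d and 53.5 ± 0.434% in sh-Ptbp1-7d (SD, n = 3 each).

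COL1A1 encodes the alpha 1 chain of type I, of which the usual type I molecule holds more copies than of alpha 2. It was at 3.05, 2.52 and 3.57 FPKM in sh-Luci-3d, 2.73, 3.32 and 2.90 in sh-Ptbp1-3d and 2.74, 1.61 and 1.68 in sh-Ptbp1-7d, and the groups overlapped (log2 fold change -0.58, standard error 0.205, limma adjusted p = 0.0358). FPKM is a level per transcript length, but it is not corrected for GC content, which is 61.1% for COL1A1 and 41.7% for COL1A2 (longest transcripts). Neither the ratios below nor the chain shares of any type were recomputed with such a correction. By FPKM, COL1A2 stood at 70.3, 80.7 and 66.1 times COL1A1 in sh-Luci-3d and 81.4, 66.9 and 73.9 times in sh-Ptbp1-3d. In sh-Ptbp1-7d it stood at 185, 310.0 and 252 times COL1A1. COL1A1 thus made up 1.37 ± 0.136%, 1.34 ± 0.130% and 0.418 ± 0.110% of the summed type I FPKM (SD, n = 3 each). The share was lower in each sh-Ptbp1-7d library than in any other, with an exact permutation p of 0.1 against sh-Ptbp1-3d.

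Type V collagen, which nucleates and limits the width of type I fibers, had another balance of chains at 7 dpi, while its sum overlapped. The sum was 70.2 ± 3.48 FPKM in sh-Ptbp1-3d and 65.5 ± 10.4 in sh-Ptbp1-7d (SD, n = 3 each) with an exact permutation p of 0.5. COL5A1, the alpha 1 chain, was at 17.9, 17.1 and 20.2 FPKM in sh-Luci-3d, 20.9, 20.9 and 18.1 in sh-Ptbp1-3d and 34.6, 34.3 and 26.6 in sh-Ptbp1-7d. Each sh-Ptbp1-7d library exceeded all 6 others, and the gene passed the FDR but not the fold threshold (log2 fold change 0.66, standard error 0.118, limma adjusted p = 0.000852). COL5A2, the alpha 2 chain, moved the other way, from 50.3, 48.3 and 50.7 FPKM in sh-Luci-3d and 51.2, 51.5 and 48.2 in sh-Ptbp1-3d to 37.4, 36.8 and 26.8 in sh-Ptbp1-7d. It too passed the FDR alone (log2 fold change -0.59, standard error 0.116, limma adjusted p = 0.00160). COL5A1 made up 27.0 ± 1.35%, 28.4 ± 0.972% and 48.7 ± 0.953% of type V in the 3 groups (SD, n = 3 each, exact permutation p = 0.1 between the last 2). Replicate 3 of sh-Ptbp1-7d, the library with lower values for long transcripts, was the lowest of its group for both chains, while its share of COL5A1, 49.8%, lay within 2 percentage points of the others.

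COL11A1 encodes the alpha 1 chain of type XI, a fibrillar collagen of cartilage that is also known from invasive tumors. On chromosome 1 from 102876467 to 103108872 (GRCh38, minus strand), it was at 0.467, 0.471 and 0.477 FPKM in sh-Luci-3d, 0.339, 0.306 and 0.622 in sh-Ptbp1-3d and 2.0, 2.15 and 1.34 in sh-Ptbp1-7d. The values of 7 dpi were all above those of 3 dpi (log2 fold change 1.91, standard error 0.261, limma adjusted p = 0.000143), and with a pseudocount of 1 the log2 fold change was 0.99 and the call was lost. Its partner chain COL11A2 was at 0.263 ± 0.0625 FPKM in sh-Ptbp1-3d and 0.474 ± 0.0210 in sh-Ptbp1-7d (SD, n = 3 each, log2 fold change 0.67, standard error 0.278, limma adjusted p = 0.0653). The remaining fibrillar genes were low and did not pass the FDR: COL27A1 had a mean of 2.04 FPKM in sh-Ptbp1-3d and 1.54 in sh-Ptbp1-7d, and COL24A1 had 0.185 and 0.212.

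Type IV collagen has 6 chains, encoded as 3 pairs of genes that lie head to head on opposite strands. In the usual basement membrane, alpha 1 and alpha 2 assemble together, alpha 3, alpha 4 and alpha 5 form the network of the kidney filter, and alpha 5 joins with alpha 6 in smooth muscle and skin. The start sites of COL4A3 and COL4A4 are 111 bases apart on chromosome 2, those of COL4A5 and COL4A6 are 346 bases apart on the X chromosome, and the gene models of COL4A1 and COL4A2 on chromosome 13 overlap by 1422 bases without a shared exonic base (0). The windows from 250 bases before to 50 after the start of COL4A2, COL4A3 and COL4A5 are shown because each also lies at the start of the paired gene, with which the window of the partner shares 226, 82 and 121 bases. The sequences and the starts that set the windows are those of RefSeq on GRCh38.p14, and these starts can differ from the GENCODE gene positions. Capitals mark the CCAAT box, on the other strand written ATTGG, as well as the GC box GGGCGG, on the other strand written CCGCCC.
COL4A2, chr13:110307034-110307333, plus strand: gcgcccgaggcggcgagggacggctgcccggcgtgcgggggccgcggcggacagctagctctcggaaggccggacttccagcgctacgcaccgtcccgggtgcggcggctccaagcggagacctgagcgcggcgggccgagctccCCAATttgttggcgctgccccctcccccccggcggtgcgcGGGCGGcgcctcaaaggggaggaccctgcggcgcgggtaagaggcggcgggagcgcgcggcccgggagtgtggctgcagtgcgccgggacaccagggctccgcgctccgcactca
COL4A3, chr2:227164374-227164673, plus strand: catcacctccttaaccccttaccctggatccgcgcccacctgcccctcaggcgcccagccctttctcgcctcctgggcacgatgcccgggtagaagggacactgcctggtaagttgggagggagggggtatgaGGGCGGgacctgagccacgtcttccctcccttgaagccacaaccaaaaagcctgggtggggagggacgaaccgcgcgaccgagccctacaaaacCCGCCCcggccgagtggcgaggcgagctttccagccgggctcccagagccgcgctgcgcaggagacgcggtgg
COL4A5, chrX:108439588-108439887, plus strand: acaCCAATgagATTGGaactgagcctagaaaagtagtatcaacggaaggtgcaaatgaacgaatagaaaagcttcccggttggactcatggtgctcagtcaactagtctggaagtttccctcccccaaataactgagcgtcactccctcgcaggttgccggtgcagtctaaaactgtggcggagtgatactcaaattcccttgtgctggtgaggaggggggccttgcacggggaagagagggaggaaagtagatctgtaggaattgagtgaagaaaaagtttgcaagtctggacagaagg
The window of COL4A2 holds one match to each of CCAAT and GGGCGG, that of COL4A3 holds 2 to GGGCGG, and that of COL4A5 holds 2 to CCAAT. Among 34943 windows of this length, 34.6% hold CCAAT on either strand, 44.9% hold GGGCGG, and the TATA box motif TATAAA is found in 11.6%, so matches of this kind are common.

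Within the pairs, the levels at 7 dpi were as follows. COL4A1 was at 7.04, 7.16 and 7.89 FPKM in sh-Luci-3d, 8.22, 8.08 and 7.52 in sh-Ptbp1-3d and 14.9, 13.7 and 9.97 in sh-Ptbp1-7d. It lay higher at 7 dpi in all 3 libraries and passed the FDR without the fold (log2 fold change 0.67, standard error 0.138, limma adjusted p = 0.00218). COL4A2 was at 27.2, 27.0 and 35.8 FPKM, 36.3, 33.2 and 35.7 and 51.3, 48.0 and 35.4 in the same groups. Its groups overlapped, since replicate 3 of sh-Ptbp1-7d stood within the range of sh-Ptbp1-3d (log2 fold change 0.34, standard error 0.146, limma adjusted p = 0.0771). COL4A5, the chain affected in X-linked Alport syndrome, was at 30.9, 29.3 and 27.9 FPKM in sh-Luci-3d, 29.1, 29.7 and 27.5 in sh-Ptbp1-3d and 44.2, 44.1 and 37.4 in sh-Ptbp1-7d. All 3 values of 7 dpi were above the others and the FDR alone was passed (log2 fold change 0.54, standard error 0.0861, limma adjusted p = 0.000423). COL4A6 overlapped, at 6.25 ± 0.394 against 6.58 ± 1.17 FPKM (SD, n = 3 each, log2 fold change 0.06).

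The third pair, COL4A3 and COL4A4, was lower at 7 dpi. COL4A4, on chromosome 2 from 227002711 to 227164453 (GRCh38, minus strand), was at 1.07, 0.781 and 0.694 FPKM in sh-Luci-3d, 0.833, 0.864 and 0.745 in sh-Ptbp1-3d and 0.254, 0.207 and 0.169 in sh-Ptbp1-7d. It fell in sh-Ptbp1-7d (log2 fold change -1.57, standard error 0.224, limma adjusted p = 0.000195), although with a pseudocount of 1 the log2 fold change was -0.58 and the call was lost. COL4A3, on chromosome 2 from 227164565 to 227314792 (plus strand), was at 1.27, 1.11 and 0.962 FPKM, 0.983, 1.17 and 0.761 and 0.484, 0.459 and 0.383. The sh-Ptbp1-7d values lay under all others, and the fold change came just short of 2 (log2 fold change -0.97, standard error 0.207, limma adjusted p = 0.00273), being past it in 5 of 21 alternative fits. Together COL4A3 and COL4A4 made up 1.22% and 1.02% of the type IV FPKM in sh-Ptbp1-3d and 0.415% and 0.196% in sh-Ptbp1-7d. The sum of all type IV chains was 79.8 ± 1.88 FPKM in sh-Ptbp1-3d and 107 ± 16.0 in sh-Ptbp1-7d (SD, n = 3 each, exact permutation p = 0.1, no overlap), so the sum and this pair went in opposite directions.

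COL18A1 encodes type XVIII, a basement membrane collagen that carries heparan sulfate and whose released end, endostatin, is known as an inhibitor of vessel growth. It lies on chromosome 21 from 45405137 to 45513720 (GRCh38, plus strand). The values were 11.8, 12.1 and 17.3 FPKM in sh-Luci-3d, 18.4, 17.0 and 16.8 in sh-Ptbp1-3d and 4.71, 4.09 and 2.72 in sh-Ptbp1-7d. All libraries of 7 dpi were lower than the other 6, and the gene fell (log2 fold change -2.19, standard error 0.196, limma adjusted p = 6.61e-06). Of its exonic bases, 16.4% overlap SLC19A1, a folate carrier on the opposite strand, and whether the counting used strand is not given in the sources used here. SLC19A1 had a mean of 4.37 FPKM in the control, 4.18 at 3 dpi of the knockdown and 4.31 at 7 dpi (log2 fold change 0.05 between the last 2). COL15A1, the closest relative of COL18A1, was at or under 0.00915 FPKM throughout.

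COL6A3 encodes the alpha 3 chain of type VI collagen, a large chain whose end is released as endotrophin, and it is required together with alpha 1 and alpha 2 in the classical type VI molecule. Over chromosome 2 from 237324003 to 237414375 (GRCh38, minus strand), it was at 1.81, 1.65 and 1.72 FPKM in sh-Luci-3d, 2.12, 2.74 and 1.71 in sh-Ptbp1-3d and 0.0227, 0.00578 and 0 in sh-Ptbp1-7d. One sh-Ptbp1-7d library is thus listed at 0 and the other 2 were near it, while both groups of 3 dpi were at or above 1.65 FPKM and overlapped each other. These levels are given as a description, since the near loss of COL6A3 was known when the genes were chosen. Its log2 fold change was -4.37, the lowest of the 30 genes tested, and depends on the pseudocount, from -1.65 with 1 FPKM to -6.97 with 0.01 FPKM. With 1 FPKM, COL18A1 (-1.95) and COL9A3 (-1.85) lay lower than COL6A3. The window around its RefSeq start is shown as the reference sequence of this gene. That start is not the GENCODE gene end given above, at which the gene on this strand begins, although the window contains it. The window holds 0 matches to the CCAAT box, the GC box GGGCGG and the TATA box TATAAA on either strand, so that no base is in capitals.
COL6A3, chr2:237414115-237414414, minus strand: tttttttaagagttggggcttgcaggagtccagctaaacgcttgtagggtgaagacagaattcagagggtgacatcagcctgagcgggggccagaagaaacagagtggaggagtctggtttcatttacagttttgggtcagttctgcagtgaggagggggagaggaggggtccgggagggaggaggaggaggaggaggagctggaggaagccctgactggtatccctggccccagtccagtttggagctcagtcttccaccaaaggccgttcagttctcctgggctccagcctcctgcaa

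The other chains of type VI stayed among the most abundant collagen transcripts. COL6A1 was at 87.2, 81.8 and 112 FPKM in sh-Luci-3d, 111, 105 and 101 in sh-Ptbp1-3d and 88.4, 80.5 and 77.3 in sh-Ptbp1-7d. The sh-Ptbp1-7d values were under those of sh-Ptbp1-3d without passing the FDR (log2 fold change -0.37, standard error 0.114, limma adjusted p = 0.0198). COL6A2 was at 74.9, 73.6 and 102 FPKM, 104, 96.0 and 94.1 and 99.1, 95.6 and 92.5, with overlap of all groups (log2 fold change -0.03, standard error 0.116, limma adjusted p = 0.829). The sign of this small difference turned under TPM, under quantile normalization and without replicate 1 of sh-Ptbp1-3d. COL6A3 made up 0.984 ± 0.165% of the type VI FPKM in sh-Luci-3d, 1.06 ± 0.249% in sh-Ptbp1-3d and 0.00512 ± 0.00625% in sh-Ptbp1-7d (SD, n = 3 each). COL6A5 and COL6A6, which encode chains that can take the place of alpha 3, did not exceed 0.00847 FPKM in any library. COL6A1 stood at 1.08 ± 0.0132 times COL6A2 in sh-Ptbp1-3d and 0.857 ± 0.0304 times in sh-Ptbp1-7d (SD, n = 3 each, exact permutation p = 0.1). The 2 genes lie in the same orientation on chromosome 21 with 93046 bases between them.

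Among the FACIT collagens, COL9A3 fell and COL14A1 rose. COL9A3 encodes the alpha 3 chain of type IX, which sits on the surface of type II fibers in cartilage and is also found in the eye and inner ear. On chromosome 20 from 62816244 to 62841159 (GRCh38, plus strand), its values were 2.01, 1.39 and 2.54 FPKM in sh-Luci-3d, 3.40, 3.06 and 3.40 in sh-Ptbp1-3d and 0.234, 0.121 and 0.217 in sh-Ptbp1-7d. Each sh-Ptbp1-7d library was at or under 0.234 FPKM and each other library at or above 1.39 (log2 fold change -3.56, standard error 0.236, limma adjusted p = 7.34e-07). Its exons share 0.93% of their bases with TCFL5 on the opposite strand, which was at 7.15 FPKM in sh-Ptbp1-3d and 5.49 in sh-Ptbp1-7d. COL9A2, the alpha 2 chain, was at 1.83, 1.80 and 2.59 FPKM in sh-Luci-3d, 2.37, 1.93 and 2.42 in sh-Ptbp1-3d and 2.81, 3.20 and 2.54 in sh-Ptbp1-7d (log2 fold change 0.34, standard error 0.172, limma adjusted p = 0.128). COL9A3 hence made up 59.5 ± 1.55% of the type IX FPKM in sh-Ptbp1-3d and 6.40 ± 2.39% in sh-Ptbp1-7d (SD, n = 3 each, exact permutation p = 0.1).

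COL14A1, a FACIT collagen that binds type I fibers through decorin, was the FACIT gene that rose. It lies on chromosome 8 from 120059780 to 120372036 (GRCh38, plus strand) and was at 8.97, 8.34 and 6.77 FPKM in sh-Luci-3d, 6.78, 6.93 and 7.04 in sh-Ptbp1-3d and 20.7, 22.1 and 16.9 in sh-Ptbp1-7d. The values of 7 dpi were all above the others (log2 fold change 1.5, standard error 0.127, limma adjusted p = 4.29e-06). COL12A1, a close relative that also lies along type I fibers, was at 32.6, 30.9 and 25.3 FPKM, 28.7, 27.6 and 27.5 and 25.8, 25.1 and 16.1 in the same order of groups. Although its sh-Ptbp1-7d libraries were under those of sh-Ptbp1-3d, the test was not passed (log2 fold change -0.35, standard error 0.165, limma adjusted p = 0.0992), and without replicate 3 of sh-Ptbp1-7d, the low library for long transcripts, the log2 fold change was -0.13. COL21A1, at 5.16 ± 0.289 FPKM in sh-Ptbp1-3d and 4.92 ± 0.366 in sh-Ptbp1-7d (SD, n = 3 each), overlapped between these groups. COL16A1 and COL19A1 were at or under 0.644 FPKM in every library and were not called.

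None of the transmembrane, short-chain network or anchoring fibril genes tested (0 of 5) was called from 3 to 7 dpi, beside 14.2% of all genes tested. With 5 genes, this count cannot set these classes apart from that share. COL7A1, the anchoring fibril collagen of skin, had 1.65, 1.52 and 1.19 FPKM in sh-Ptbp1-3d and 0.818, 1.28 and 0.551 in sh-Ptbp1-7d, with overlap (log2 fold change -0.72, standard error 0.259, limma adjusted p = 0.0399). COL8A1, a network collagen of vessel walls and the cornea, was at 1.46 ± 0.0822 and 1.32 ± 0.317 FPKM (SD, n = 3 each), and its partner COL8A2 at 0.149 ± 0.0115 and 0.232 ± 0.0149. COL13A1 and COL17A1, transmembrane collagens of the neuromuscular junction and of the skin's hemidesmosomes, had group means between 0.0673 and 0.418 FPKM.

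Set against the control of 3 dpi, 8 of 30 collagen genes were called in sh-Ptbp1-7d, 3 higher and 5 lower, where 14.6% of all genes tested were called, 8.93% higher and 5.68% lower. Without the fold threshold, 13 of the 30 passed the FDR, where 35.6% of all genes did. This comparison shares the sh-Ptbp1-7d libraries with the one above and is not independent of it. COL6A3, whose low level at 7 dpi was known when the genes were chosen, stands in both counts as a description. The genes higher were COL1A2 (log2 fold change 1.13), COL11A1 (1.73) and COL14A1 (1.30). Those lower were COL6A3 (-4.07), COL9A3 (-2.82), COL18A1 (-1.82), COL4A4 (-1.60) and COL4A3 (-1.16), the last with a standard error of 0.207 and a limma adjusted p = 0.000850. COL11A1, COL4A4 and COL4A3 were no longer called with a pseudocount of 1, which left 5.

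Knockdown and control of the same day were compared in sh-Ptbp1-3d against sh-Luci-3d. Of the 30 collagen genes, limma called 0 under the call rule with an FDR limit of 0.05, in a comparison that called 0.0129% of all genes tested, that is 2 genes. PTBP1, the target of the sh-RNA, passed this FDR but not the fold threshold (log2 fold change -0.85, limma adjusted p = 0.00314). Leaving out one library gave 0 to 59 genes called among all tested. With so few calls, the 0 does not show that no collagen gene differed. At an unadjusted p under 0.05 there were 2 collagen genes, COL9A3 and COL16A1, where 7.24% of all genes had such a p, and 0 were called in any of the 22 alternative fits. The log2 fold changes of the 30 ranged from -0.27 to 0.74. The largest was that of COL9A3, whose sh-Ptbp1-3d libraries lay above those of sh-Luci-3d (log2 fold change 0.74, standard error 0.236, limma adjusted p = 0.563). COL6A3 had a log2 fold change of 0.30 (standard error 0.214), COL18A1 of 0.36 (0.196), and COL1A2 of 0.01 (0.0914). Of the 4 genes that fell between 3 and 7 dpi, COL4A4 was the one with a negative value here, -0.03 (0.224). The knockdown and control libraries were fully separate for 5 of the 30, COL9A3, COL16A1, COL4A6, COL8A1 and COL8A2, where 10.8% of all genes tested were.

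The enzymes, chaperones and receptors that handle collagen were examined with lists of 75 genes, of which 59 were tested. From 3 to 7 dpi of the knockdown, 14 rose and 4 fell, where 8.31% of all genes tested were called higher and 5.90% lower, 14.2% in all. In the list for chain modification and folding, 5 of 18 rose and 2 fell, with a median log2 fold change of 0.28. FKBP10, a prolyl isomerase and collagen chaperone of the endoplasmic reticulum, had 51.9, 47.5 and 49.9 FPKM in sh-Ptbp1-3d and 188, 181 and 182 in sh-Ptbp1-7d (log2 fold change 1.88, standard error 0.0879, limma adjusted p = 6.42e-08). P3H4, a partner of lysyl hydroxylase, was at 18.1, 18.4 and 17.6 and 60.7, 60.4 and 64.3 FPKM (log2 fold change 1.77). PPIB, cyclophilin B, was at 256, 263 and 257 and 697, 672 and 708 FPKM (1.42), and P4HB, the shared subunit of prolyl hydroxylase, at 447, 451 and 458 and 1007, 961 and 1111 FPKM (1.18). For each of these 4 genes, which were chosen among those called, all libraries of 7 dpi lay on one side of those of 3 dpi, as they did for 62.3% of all genes tested.

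Named after their values were seen, SERPINH1, P4HA2 and PLOD2 completed the 7 genes called in this list. SERPINH1 encodes HSP47, a chaperone specific for collagen, and had a log2 fold change of 1.07. P4HA2, a catalytic subunit of prolyl hydroxylase, and PLOD2, a lysyl hydroxylase, fell with -1.04 and -1.03. These 3 lie close to a fold change of 2, and each was no longer called in 3 to 5 of the 22 alternative fits. Their relatives P4HA1 and PLOD1 were higher at 7 dpi and passed the FDR without the fold threshold, with 0.62 and 0.73.

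Of the export genes, 1 of 12 was called, beside 14.2% of all genes tested. It was MIA3, known as TANGO1, the receptor that loads procollagen into large transport vesicles, at 13.3, 12.6 and 11.0 FPKM in sh-Ptbp1-3d and 26.8, 27.0 and 24.3 in sh-Ptbp1-7d (log2 fold change 1.08, standard error 0.104, limma adjusted p = 1.10e-05). Another 5 passed the FDR without the fold threshold, all of them higher at 7 dpi, where 35.8% of all genes tested passed it in either direction.

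Among 12 genes for propeptide cleavage and crosslinking, 5 rose and 2 fell, beside 8.31% and 5.90% of all genes tested. The lysyl oxidases, which crosslink collagen and elastin outside the cell, went in both directions. LOXL2, the family member known to act on type IV collagen, was at 184, 177 and 191 FPKM in sh-Luci-3d, 182, 186 and 174 in sh-Ptbp1-3d and 27.5, 25.2 and 22.4 in sh-Ptbp1-7d, and fell (log2 fold change -2.85, standard error 0.0846, limma adjusted p = 3.32e-09). LOX had 3.36, 3.21 and 3.57 FPKM in sh-Ptbp1-3d and 12.02, 13.5 and 12.8 in sh-Ptbp1-7d and rose with a log2 fold change of 1.89. LOXL3, at means of 0.557 and 1.99 FPKM, rose with 1.68, and LOXL1, named after its values were seen, at means of 44.4 and 96.5 FPKM, rose with 1.12. PCOLCE2, an enhancer of the protease that removes the procollagen end, fell with -1.32. BMP1, that protease, was at 41.9 ± 0.207 FPKM in sh-Ptbp1-3d and 35.3 ± 0.452 in sh-Ptbp1-7d (SD, n = 3 each) and was not called. The other 2 genes that rose were ADAMTS14 and TGM2, both at or under 1.19 FPKM. ADAMTS14 was called in 10 and TGM2 in 16 of the 21 alternative fits that tested them.

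Of 7 partners of fibers and basement membranes, 1 was called, and of 8 receptors, 1, shares near the 14.2% of all genes tested. BGN, biglycan, a proteoglycan that binds fibers, was at 2.63, 3.06 and 3.91 FPKM in sh-Luci-3d, 3.42, 3.81 and 3.99 in sh-Ptbp1-3d and 11.99, 12.5 and 14.6 in sh-Ptbp1-7d and rose (log2 fold change 1.77, standard error 0.148, limma adjusted p = 4.03e-06). Decorin, DCN, the partner of COL14A1, was at or under 0.101 FPKM. The receptor called was MRC2, also known as Endo180, which takes up collagen into the cell, at 35.8, 33.9 and 35.3 FPKM in sh-Ptbp1-3d and 81.3, 76.5 and 65.0 in sh-Ptbp1-7d (log2 fold change 1.08, standard error 0.117, limma adjusted p = 2.70e-05). ITGB1, the beta chain shared by the collagen-binding integrins, was at 193 ± 9.69 FPKM in sh-Ptbp1-3d and 130.1 ± 8.31 in sh-Ptbp1-7d (SD, n = 3 each) and passed the FDR but not the fold threshold (log2 fold change -0.57). Of 6 collagenases and gelatinases, 2 were tested. MMP2, a gelatinase that also cleaves type IV, was at 24.6, 23.5 and 25.3 FPKM in sh-Luci-3d, 24.5, 24.3 and 26.1 in sh-Ptbp1-3d and 129, 126 and 128 in sh-Ptbp1-7d, and rose (log2 fold change 2.35, standard error 0.0680, limma adjusted p = 3.21e-09). MMP14, its activator at the cell surface, was at 19.2 and 35.6 FPKM and passed the FDR without the fold threshold (0.88), and MMP1, MMP8, MMP9 and MMP13 were at or under 0.138 FPKM in every library.

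In the comparison of knockdown with control at 3 dpi, 0 of the 59 genes of these lists were called by limma, beside 0.0129% of all genes tested, and 3 had an unadjusted p under 0.05, beside 7.24%. Against sh-Luci-3d, sh-Ptbp1-7d had 14 higher and 4 lower, where 8.93% of all genes were higher and 5.68% lower.

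Cell type markers were read beside these results, since fibroblasts, vessel cells and neurons differ in their collagens. From 3 to 7 dpi of the knockdown, 8.31% of all genes tested were called higher and 5.90% lower, beside which the marker counts are to be read. Of the 10 glioma and astroglial markers, 8 were tested, 1 rose and 2 fell. VIM fell from 4381 ± 150.2 FPKM at 3 dpi of the knockdown to 1169 ± 77.4 at 7 dpi and CD44 from 166 ± 10.9 to 62.3 ± 2.12 (SD, n = 3 each), while SOX2 was at 125 ± 2.63 and 145 ± 6.28. S100B, the marker that rose, had a mean of 0.115 FPKM in sh-Ptbp1-3d and 0.797 in sh-Ptbp1-7d (log2 fold change 2.08, standard error 0.423, limma adjusted p = 0.00202). The astrocyte markers GFAP, AQP4 and ALDH1L1 were at or under 1.15 FPKM in every library. The 11 fibroblast and mural markers summed to 33.1 to 36.2 FPKM in sh-Ptbp1-3d and 37.0 to 37.4 in sh-Ptbp1-7d. Of the 8 tested, ACTA2 and FAP rose (log2 fold changes 1.22 and 1.84) and 0 fell. Without the fold threshold, 4 of the 8 passed the FDR, 3 higher and 1 lower, where 35.8% of all genes did. The median log2 fold change of the 8 was 0.45. Among those not called, PDGFRA was higher and THY1 lower, and both passed the FDR (log2 fold changes 0.63 and -0.55). RGS5 and PDGFRB had log2 fold changes of -0.65 and -0.60, and CSPG4 and TAGLN of 0.95 and 0.27, without passing it. The fibroblast proteoglycans DCN and LUM were at or under 0.203 FPKM. The 7 endothelial markers summed to at most 0.952 FPKM, and the 8 blood and immune markers to at most 1.21. Of the 2 endothelial markers tested, CDH5 fell (log2 fold change -1.91), at or under 0.591 FPKM in every library, and 0 rose. The neuronal list summed to 554 to 570 FPKM in sh-Ptbp1-3d and 250.1 to 258 in sh-Ptbp1-7d. Most of this sum was TUBB3 and NEFL, which fell (log2 fold changes -1.42 and -1.22). Of the 8 neuronal markers tested, these 2 fell and 0 rose. MAP2 went from a mean of 20.3 to 38.9 FPKM and passed the FDR but not the fold threshold (log2 fold change 0.94, standard error 0.157, limma adjusted p = 0.000580). SNAP25, at means of 2.68 and 4.32 FPKM, did not pass the FDR. In sh-Ptbp1-3d it was at 2.05, 2.14 and 3.86 FPKM, highest in replicate 3, the library that held STMN2. MAP2 was called in 3 and SNAP25 in 1 of 22 alternative fits. Against sh-Luci-3d, 1 neuronal marker was called higher at 7 dpi and 2 lower, where 8.93% and 5.68% of all genes were. The part of these markers in the collagen results was not tested.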

How the data were processed

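Total RNA of infected U251 cells was sequenced on Illumina HiSeq, and the values are FPKM for each gene, as the authors deposited them after filtering the reads. The submitters' processing notes name HISAT2 and GRCh38, and the counting program and the use of strand are not given in the sources used here. The number of value columns left out was 0. Libraries were grouped by their labels.

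Values were analysed as log2(FPKM + 0.1) for the 15551 entries whose mean reached 0.1 FPKM, with limma 3.58.1 in R 4.3.3, all 9 libraries in one model, a trend in the empirical Bayes step and Benjamini-Hochberg adjustment over all genes tested. A fold change above 2 was required, with an FDR below 0.01 in comparisons of 7 dpi and below 0.05 where knockdown and control of 3 dpi were compared. Sums and chain shares were compared by exact two-sided permutation tests. Alternatives were other pseudocounts, filters, scalings, fits and thresholds, a replicate block, and leaving out each library.

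Gene positions are from GENCODE release 29. Promoter windows are from RefSeq on GRCh38.p14, which held one for 32 of the 44 genes. The figures were drawn with matplotlib 3.10.9. The collagen genes, classes and lists were chosen with earlier results of these data known. Values in every library were given for collagen genes called in any comparison or whose mean in a group reached 10 FPKM. Of each further list, the up to 4 called genes with the largest fold changes whose mean reached 1 FPKM were named. Genes outside this rule were named after their values were seen, and genes under a mean of 0.1 FPKM were named only, except where a value is given.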

Additional observations from a re-analysis of the deposited data

How the results depend on the processing

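Across pseudocounts, filters, scalings, fits and the leaving out of each library, 22 alternatives in all, the number of collagen genes called from 3 to 7 dpi of the knockdown ranged from 5 to 8. With a pseudocount of 1, and with a mean of at least 1 FPKM required, 5 were called, COL11A1 and COL4A4 being lost in both. The other settings kept all 7, and COL4A3 was added, to make 8, with a pseudocount of 0.01, median-ratio scaling, quantile normalization, and without replicate 3 of sh-Ptbp1-3d or replicate 1 of sh-Ptbp1-7d. At 7 dpi against the control, 5 collagen genes in place of 8 were called with a pseudocount of 1 and 5 with a mean of at least 1 FPKM, COL11A1, COL4A3 and COL4A4 being lost. Fewer genes are tested under the latter, and a larger pseudocount shrinks the changes of low genes. The log2 fold change of COL6A2 from 3 to 7 dpi turned sign, to 0.0671 under TPM, 0.0505 under quantile normalization and 0.00948 without replicate 1 of sh-Ptbp1-3d (-0.0635 to 0.00948 over the fits that leave out one library), and the cause was not tested.

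Leaving out each library in turn gave 7 to 8 collagen genes called from 3 to 7 dpi, 8 in each fit of 7 dpi against the control and 0 in each fit of knockdown against control at 3 dpi. It gave 14 to 18 genes of the processing lists, a ratio of summed collagen FPKM from 1.32 to 1.45, and a median log2 fold change from -0.02 to 0.39 for the fibrillar and from -0.06 to 0.20 for the basement membrane genes. The share of COL6A3 in type VI at 7 dpi, 0.00512%, became 0.00164% without replicate 1 of sh-Ptbp1-7d, the library with its highest value, and 0.00769% without replicate 3. The median log2 fold change of all genes from 3 to 7 dpi was 0.09, 0.20 under TPM, 0.01 under median-ratio scaling and -0.01 under quantile normalization, and the share of called genes that were higher was 58.5%, 65.8%, 50.7% and 49.0%.

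Correlations of the deviations of same-numbered libraries ranged from -0.02 to 0.06, and those of differently numbered libraries from -0.12 to 0.16. These correlations showed no pairing by replicate number, but 3 libraries per group cannot exclude it. The longest transcripts were lowest in replicate 3 of each group, by a median of -0.24, -0.08 and -0.22 on the log2 scale. With the number as a replicate block, 7 collagen genes were called from 3 to 7 dpi, 8 at 7 dpi against the control and 0 in the knockdown at 3 dpi, and 17 genes of the processing lists in place of 18.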

Other observations

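Genes outside the lists were not searched. Among the collagen genes that were too low to be tested, COL3A1 and COL26A1 were read library by library because of their single high values, and both were chosen after these were seen. COL26A1 was at 0.106 FPKM in replicate 3 of sh-Ptbp1-3d and at or under 0.0295 in the other 8 libraries. In the same library LUM was at 0.203 FPKM, DCX at 2.14 and ELAVL3 at 1.47, while in the other 8 none exceeded 0.0346. Without this library the number of collagen genes called from 3 to 7 dpi was 8, and its part in the results was not tested further.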
